A study of Mus musculus with 12 samples.

Results

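The 8 genes described here are the sterol regulatory element binding protein (SREBP) factors Srebf1 and Srebf2, the retention gene Insig1, and 5 enzymes of sterol synthesis, namely Hmgcs1, Idi1, Fdft1, Sqle and Lss. They were chosen by symbol, each through its mouse Ensembl gene identifier, and make up 8 of the 55401 genes in the count table. The 12 samples were subcutaneous tumors of TC2Ras, a Ras-driven mouse prostate cancer line, taken at day 21 from mice that had all received low-arsenic chow and Milli-Q water before implantation. The mice were injected with 125000 TC2Ras cells into the flanks, and the tumors of the left and right flank were pooled, so that 1 library stood for 1 mouse. The host strain and age were not given in the sources used here.

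The 4 groups held 3 tumors each. Control tumors grew from TC2Ras cells alone in mice drinking 0 ppb inorganic arsenic (iAs), ASC tumors from TC2Ras cells mixed with 1% ASC-GFP cells at 0 ppb iAs, As300 tumors from TC2Ras cells alone at 300 ppb iAs, and ASC_As300 tumors from the mixture at 300 ppb iAs. ASC-GFP cells are primary adipose stromal cells from mice that express green fluorescent protein from the ubiquitin C promoter. Replicate numbers below are names and carry no order.

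SREBPs are membrane-bound transcription factors that are carried from the endoplasmic reticulum to the Golgi and cut there when membrane cholesterol is low, after which the released part enters the nucleus and switches on sterol and lipid genes. Srebf2 encodes the form that mainly drives cholesterol synthesis and uptake, and Srebf1 encodes forms that mainly drive fatty acid synthesis. INSIG1 holds the SREBP escort SCAP in the endoplasmic reticulum when sterols are plentiful, and Insig1, Srebf2 and the sterol synthesis enzymes are themselves SREBP targets.

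Short stretches upstream of 4 of the genes are shown because they carry the letters that SREBP and its partner NF-Y are known to read. RefSeq promoters (assembly GRCm38.p6, 250 bases before to 50 bases after the start) were at hand for 6 of the 8 genes, with 3 starts for Srebf1, and none for Sqle and Fdft1. The stretches run 5′ to 3′ on the plus strand, end before the first annotated base of the gene, and carry in capitals each match, on either strand, to the sterol element TCACNCCAC, the E-box CACGTG or the NF-Y box CCAAT.
Hmgcs1 (chr13:119690101-119690350): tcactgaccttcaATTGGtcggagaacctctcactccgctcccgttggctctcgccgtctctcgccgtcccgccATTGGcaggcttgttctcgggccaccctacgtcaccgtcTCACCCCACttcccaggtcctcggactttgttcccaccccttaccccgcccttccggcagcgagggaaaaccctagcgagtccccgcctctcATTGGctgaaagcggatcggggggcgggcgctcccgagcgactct
Insig1 (chr5:28071162-28071362): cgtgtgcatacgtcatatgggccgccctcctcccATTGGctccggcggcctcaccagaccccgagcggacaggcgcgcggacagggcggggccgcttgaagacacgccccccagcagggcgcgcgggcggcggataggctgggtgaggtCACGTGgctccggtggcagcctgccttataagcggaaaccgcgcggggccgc
Srebf2 (chr15:82147019-82147180): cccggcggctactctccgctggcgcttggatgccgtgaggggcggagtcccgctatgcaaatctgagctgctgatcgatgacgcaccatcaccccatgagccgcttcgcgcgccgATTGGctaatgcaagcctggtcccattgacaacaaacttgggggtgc
Lss (chr10:76531355-76531587): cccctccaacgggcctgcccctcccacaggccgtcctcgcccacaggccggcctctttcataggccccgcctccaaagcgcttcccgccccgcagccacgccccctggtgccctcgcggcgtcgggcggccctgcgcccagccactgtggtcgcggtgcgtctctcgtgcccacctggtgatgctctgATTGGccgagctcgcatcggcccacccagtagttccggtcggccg
The letters of the sterol element were found in the promoter of Hmgcs1 alone among the 6 genes, as TCACCCCAC starting at position -137 from the start, and 1.24% of all 32851 promoters of the table held them. The E-box letters were found at -101 of Insig1 and in no other of the 6 genes, against 7.15% of all promoters. The NF-Y letters were present in at least 1 promoter of each of the 6 genes, with 4 matches in Hmgcs1 and 2 in Idi1, against 37.4% of all promoters. The Sp1 box GGGCGG, which is not marked, was held by 35.7% of all promoters and by at least 1 promoter of all 6 genes. These are matches of letters and not measured binding sites.

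The 8 genes had 1305 to 15496 counts per tumor, and library totals ran from 39157647 to 55168642 counts. Levels are given as CPM, the read counts of a gene relative to the library size after scaling by the trimmed mean of M values (TMM), and 20818 genes passed the filter on low counts, all 8 among them. In bulk tumors, fewer cells that express a gene and less RNA of it per cell cannot be told apart. The labels name the samples adipose-derived mesenchymal/stromal cells, whereas the protocols describe whole tumors. The summed level of 11 fibroblast and adipose stromal markers was 5498 to 10371 CPM over the 12 tumors and that of 10 macrophage markers 1494 to 2748 CPM, and each tumor held both. Of the epithelial and prostate markers, Krt8 was at 24.1 to 337 CPM, whereas Pbsn had no count in any tumor and Hoxb13 had at most 4 counts in a tumor. Control replicate 1 stood apart in 7 B cell markers (193 CPM, against 2.18 to 14.3 CPM in the other tumors) and in 9 epithelial and prostate markers (398 CPM, against 65.3 to 151 CPM), and Control replicate 2 and As300 replicate 1 stood apart in 7 skeletal muscle markers (1603 and 1622 CPM, against 1.96 to 326 CPM).

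Per kilobase of exon, Srebf2 had the highest level of the 8 genes and Lss the lowest. Srebf2 was at 33.3 ± 3.25 CPM per kb (SD, n = 12 tumors), above Srebf1 in 12 of 12 tumors. The next 6 genes lay close together, from Srebf1 at 16.5 ± 1.09 CPM per kb through Hmgcs1 (16.3 ± 1.79), Sqle (16.0 ± 1.77), Fdft1 (15.2 ± 2.08) and Idi1 (14.4 ± 2.49) to Insig1 at 13.6 ± 2.04 CPM per kb. Neighbours within that run were not separated beyond their spread, the stated order holding in 5 to 9 of 12 tumors for each neighbouring pair. Lss was at 4.04 ± 0.444 CPM per kb and below Insig1 in 12 of 12 tumors.

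The question put to each gene was whether admixed ASC, iAs or both moved its level away from Control, and no member of the pathway was called in any of these comparisons. A call required an adjusted p (Benjamini-Hochberg) below 0.05 together with a 1.5-fold or larger change in edgeR's quasi-likelihood test, fitted over all 12 tumors and all 20818 genes. Of the 8 genes, 0 were called in ASC against Control, where 0.721% of all genes tested were called. In As300 against Control 0 of 8 were called, against 1.06% of all genes, and in ASC_As300 against Control 0 of 8, against 0.807% of all genes. DESeq2 also called 0 of 8 in each. At an unadjusted p under 0.05, 1 gene was higher in ASC (Srebf1), 2 were lower in As300 (Hmgcs1 and Idi1) and 1 was higher in ASC_As300 (Srebf1). The sum of 10 proliferation markers was also lower in the As300 tumors (1487 to 1624 CPM) than in the Control tumors (1663 to 1772 CPM), and its part in the As300 values was not tested. These 3 comparisons share the Control tumors.

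Without a correction for GC content, the changes that the fitted intervals still held were small for most members. The 95% interval of the log2 fold change lay wholly within 1.5-fold in both directions (0.585 on the log2 scale) relative to Control for 8 of 8 genes in ASC_As300 and in ASC, and for 6 of 8 in As300. The same held for 39.1%, 38.7% and 34.6% of all genes with an interval, in that order. The 2 exceptions in As300 were Insig1 and Idi1, whose intervals reached -0.64 and -0.81 on the log2 scale. The intervals cover the spread between tumors and not the choice of correction. With the correction for GC content described further on, the As300 value of Srebf1 was -0.13, outside its interval of -0.02 to 0.26. That of Hmgcs1 was -0.16, outside its interval of -0.56 to -0.17.

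**Figure D1:**
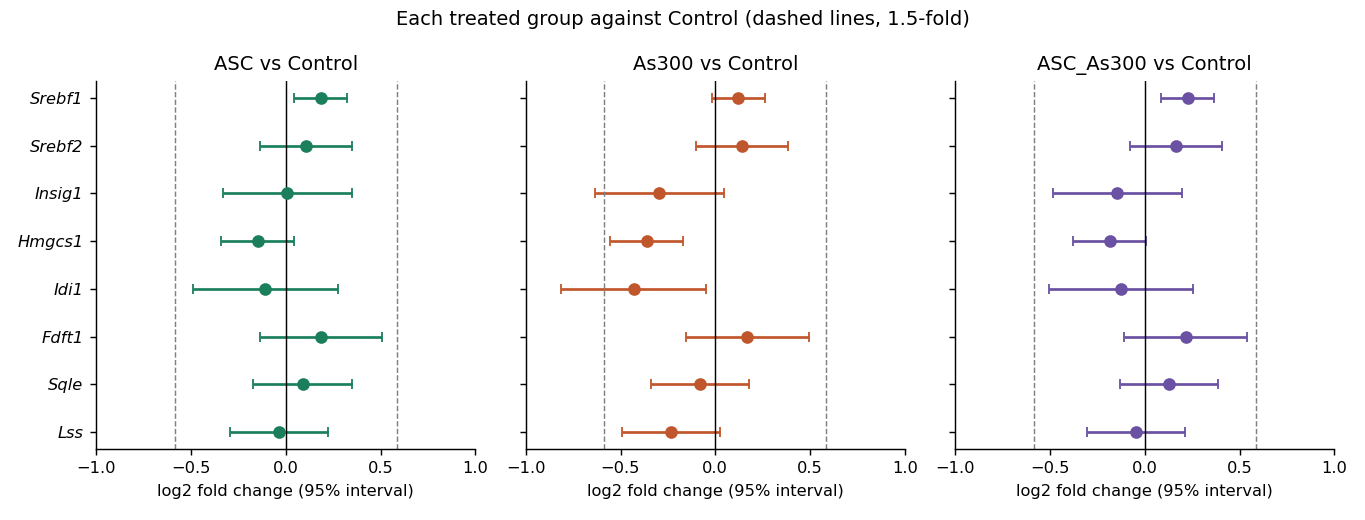
Log2 fold change of the 8 genes (points) with its 95% interval (bars) from edgeR's quasi-likelihood fit, for each treated group relative to Control, with dashed lines at 1.5-fold. Srebf1 and Srebf2 lie right of 0 in the 3 panels, Hmgcs1 and Idi1 lie left of it, and none of the points reaches a dashed line; with the correction for GC content described further on, Srebf1 changes side in As300, Srebf2 in 3 panels and Idi1 in 2.

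Srebf1 (chr11:60199089-60222581, minus strand, GRCm38) was slightly higher in each treated group than in Control. Its level was 82.6, 85.4 and 86.6 CPM in the Control tumors, 94.0, 93.4 and 102 CPM in ASC, 93.2, 94.2 and 89.4 CPM in As300, and 99.3, 100.4 and 98.0 CPM in ASC_As300. Each of the 9 treated tumors was above each of the 3 Control tumors. The sum of 8 neuron markers split in the same way, at 59.1 to 76.9 CPM in Control and 87.7 to 143 CPM in the 9 treated tumors, and its part in the Srebf1 values was not tested. The log2 fold change was 0.18 (SE 0.06, adjusted p = 0.203) in ASC, 0.12 (SE 0.06, adjusted p = 0.277) in As300 and 0.23 (SE 0.06, adjusted p = 0.138) in ASC_As300. Srebf1 was among the steadiest genes of the table, with a within-group SD of 0.0443 on the log2 scale, under that of all but 0.0817% of the genes tested, where the median gene was at 0.275. Averaged over both iAs levels, the log2 difference with ASC was 0.14 (SE 0.05, adjusted p = 0.191 by edgeR).

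Srebf2 (chr15:82147181-82205379) overlapped between all groups. It was at 208, 246 and 214 CPM in Control, 236, 209 and 275 CPM in ASC, 218, 245 and 274 CPM in As300, and 250.2, 239 and 259 CPM in ASC_As300. The spread within the ASC group, from 209 to 275 CPM, was wider than any difference between group means. The log2 fold changes were 0.11 (SE 0.11, adjusted p = 0.704), 0.14 (SE 0.11, adjusted p = 0.492) and 0.16 (SE 0.11, adjusted p = 0.514) in ASC, As300 and ASC_As300.

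Insig1 (chr5:28071363-28078662) was steady without iAs and uneven with it. The Control tumors lay at 45.4, 46.9 and 43.8 CPM and the ASC tumors at 46.6, 43.7 and 46.4 CPM. In As300, 2 tumors were at 32.6 and 32.1 CPM, below all Control tumors, and the third was at 46.1 CPM. With both treatments the group was again uneven, at 41.6, 32.0 and 49.4 CPM. The SD within the group was 1.54 CPM in Control and 1.60 CPM in ASC, against 7.92 CPM in As300 and 8.69 CPM in ASC_As300 (n = 3 each, no test was made of the spread). The log2 fold change was 0.01 (SE 0.16, adjusted p = 0.989) in ASC, -0.29 (SE 0.16, adjusted p = 0.279) in As300 and -0.15 (SE 0.16, adjusted p = 0.707) in ASC_As300.

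Hmgcs1 (chr13:119690379-119708260), which makes the HMG-CoA that enters the mevalonate pathway, came closest to a call. It was at 84.6, 83.4 and 85.2 CPM in Control, 82.3, 71.2 and 75.1 CPM in ASC, 61.8, 61.96 and 73.1 CPM in As300, and 80.6, 70.2 and 71.8 CPM in ASC_As300. All 9 treated tumors lay below all 3 Control tumors, whose SD was only 0.918 CPM. In As300 the log2 fold change was -0.36 (SE 0.09, 95% interval -0.56 to -0.17, adjusted p = 0.0506). The change was -0.15 (SE 0.09, adjusted p = 0.463) in ASC and -0.19 (SE 0.09, adjusted p = 0.347) in ASC_As300. Under the 20 alternatives tried, the adjusted p of the As300 difference ran from 0.00707 with DESeq2 to 0.372 with the correction for GC content, 4 of them under 0.05, and none reached 1.5-fold.

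Groups that do not overlap were therefore seen for 2 of 8 genes in each comparison with Control, Srebf1 above and Hmgcs1 below. Over all genes tested, groups did not overlap for 19.0% (ASC), 29.9% (As300) and 25.6% (ASC_As300) relative to Control, so that 2 of 8 is near the share of the whole table.

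Idi1 (chr13:8885501-8892451), which isomerises isopentenyl diphosphate, varied most among the 8 genes, by 2.04-fold from the lowest to the highest tumor. It was at 51.1, 61.6 and 55.8 CPM in Control, 54.2, 45.2 and 57.0 CPM in ASC, 42.0, 30.2 and 52.8 CPM in As300, and 53.8, 43.4 and 57.4 CPM in ASC_As300. As300 replicates 1 and 2 were below the Control tumors, as for Insig1, and replicate 3 was within their range. The log2 fold change in As300 was -0.43 (SE 0.18, adjusted p = 0.158), and it was -0.25 without replicate 2 and -0.61 without replicate 3. In ASC and ASC_As300 it was -0.11 (SE 0.18, adjusted p = 0.830) and -0.12 (SE 0.18, adjusted p = 0.789).

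Fdft1 (chr14:63145150-63179578, minus strand) encodes squalene synthase, the first enzyme committed to sterols. It was at 51.1, 68.0 and 55.4 CPM in Control, 64.1, 53.6 and 80.6 CPM in ASC, 61.2, 62.2 and 72.8 CPM in As300, and 69.8, 60.1 and 72.7 CPM in ASC_As300. The groups overlapped, with log2 fold changes against Control of 0.18, 0.17 and 0.21 (SE 0.15 each, adjusted p = 0.598, 0.547 and 0.523 by edgeR) in ASC, As300 and ASC_As300.

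Sqle (chr15:59315077-59331192) encodes squalene epoxidase, a rate-controlling step downstream of squalene. It was at 74.6, 96.8 and 89.1 CPM in Control, 103, 76.4 and 97.1 CPM in ASC, 78.2, 80.9 and 87.0 CPM in As300, and 97.7, 88.0 and 98.9 CPM in ASC_As300. The log2 fold changes against Control were 0.09, -0.08 and 0.13 (SE 0.12 each, adjusted p = 0.784, 0.747 and 0.652 by edgeR).

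Lss (chr10:76531588-76557138) encodes lanosterol synthase, which closes the sterol rings. Its values were 46.1, 49.2 and 42.7 CPM in Control, 45.7, 38.8 and 50.1 CPM in ASC, 36.7, 35.2 and 45.5 CPM in As300, and 47.3, 41.1 and 45.2 CPM in ASC_As300. Again As300 replicates 1 and 2 were below the Control tumors and replicate 3 was not. The log2 fold change in As300 was -0.23 (SE 0.12, adjusted p = 0.260), and in ASC and ASC_As300 it was -0.04 and -0.05 (SE 0.12 each, adjusted p = 0.926 and 0.900).

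**Figure D2:**
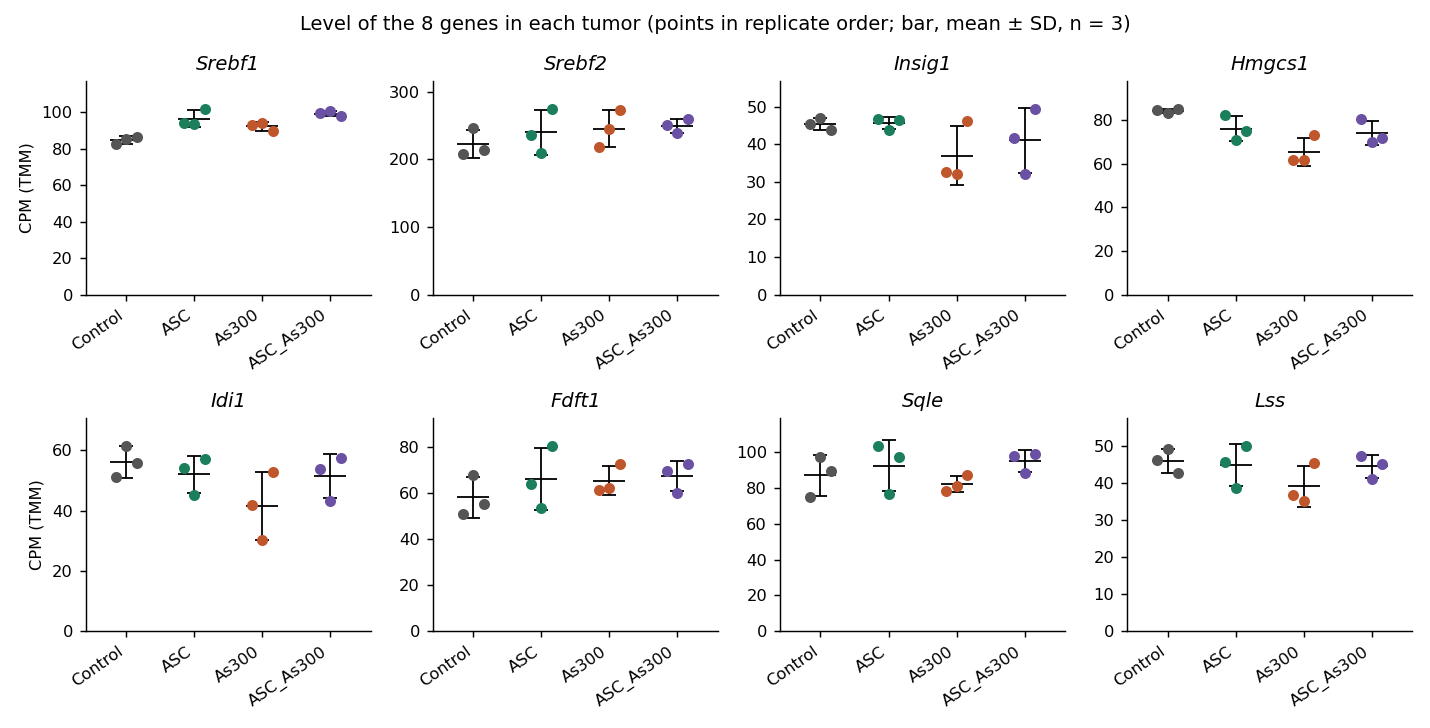
Level of each gene in CPM (y axis from 0) in the 12 tumors by group, with tumors as points in replicate order and the mean ± SD (n = 3) as a bar. As300 replicates 1 and 2 lie below all Control tumors for Insig1, Hmgcs1, Idi1 and Lss, and the 3 Control tumors are the lowest for Srebf1 and the highest for Hmgcs1.

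The other contrasts of the 2 by 2 design compared ASC_As300 with each single treatment and averaged each treatment over the levels of the other. Only the interaction asked whether either treatment acted differently in the presence of the other. In ASC_As300 against As300, the log2 difference was above 0 for 8 of 8 genes (0.02 to 0.31), and 0 of 8 were called, where 0.855% of all genes were. Groups did not overlap for 2 of 8 genes, Srebf1 (0.10, adjusted p = 0.639) and Sqle (0.21, adjusted p = 0.609), both higher in ASC_As300, against 19.7% of all genes. Idi1 had the largest difference of the 8 at 0.31 (SE 0.18, adjusted p = 0.613 by edgeR), which was 0.12 without As300 replicate 2 and 0.49 without As300 replicate 3. In ASC_As300 against ASC, 0 of 8 were called and 0 of 8 did not overlap, with log2 differences from -0.15 to 0.06. No gene of the table was called there (0%), 669 had an unadjusted p under 0.05, DESeq2 called 11, and 8.07% did not overlap.

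Averaged over both iAs levels, 0 of 8 genes were called for ASC, against 1.45% of all genes. Averaged over both ASC levels, 0 of 8 were called for iAs, and edgeR called 0% of all genes, with 3325 at an unadjusted p under 0.05, 114 called by DESeq2, and 59 called by edgeR without ASC replicate 3. Hmgcs1 had the lowest adjusted p of the 8 for iAs, with a log2 difference of -0.20 (SE 0.06, adjusted p = 0.193). In the interaction, the difference between the iAs change with and without ASC, 0 of 8 were called and edgeR called 0% of all genes, with 2836 at an unadjusted p under 0.05 and 174 called by DESeq2. The interaction was 0.33 for Hmgcs1 (SE 0.13, adjusted p = 0.325) and 0.41 for Idi1 (SE 0.25, adjusted p = 0.473). With the correction for GC content described next, these became 0.13 and 0.19, and the iAs difference of Hmgcs1 became -0.09. The 95% interval of the interaction lay within 1.5-fold for only 3 of 8 genes, so that a sizeable interaction could have been missed for the other 5.

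GC content ordered the 8 genes much as their As300 change did. The longest transcript held 58.4% GC for Srebf1, 57.9% for Srebf2, 51.8% for Fdft1, 48.7% for Lss, 48.6% for Sqle, 48.2% for Insig1, 43.1% for Hmgcs1 and 41.9% for Idi1. Across the 8 genes, Pearson's r between GC content and the log2 fold change in As300 was 0.90, and across 20789 genes with a GC value it was 0.22. These are correlations across genes, which are not independent replicates. Each tumor was then corrected by taking out its trend with GC content over all genes, which fixes the fall of r over all genes in advance. A group difference that follows GC content would be taken out as well. After this correction, r over the 8 genes was 0.33 and over all genes -0.01. The As300 change of Srebf1 then went from 0.12 to -0.13, that of Srebf2 from 0.14 to -0.10, that of Hmgcs1 from -0.36 to -0.16 and that of Idi1 from -0.43 to -0.20, while Insig1 was at -0.23 and Lss at -0.18. In ASC, r went from 0.85 to 0.03 and the change of Srebf1 from 0.18 to 0.03, and in ASC_As300 r went from 0.83 to 0.24 and Srebf1 from 0.23 to 0.05. The As300 calls of the whole table, 220 genes, fell to 0 with this correction, to 8 with no filter on low counts, and to 0 without any 1 of the 3 Control tumors.

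**Figure D3:**
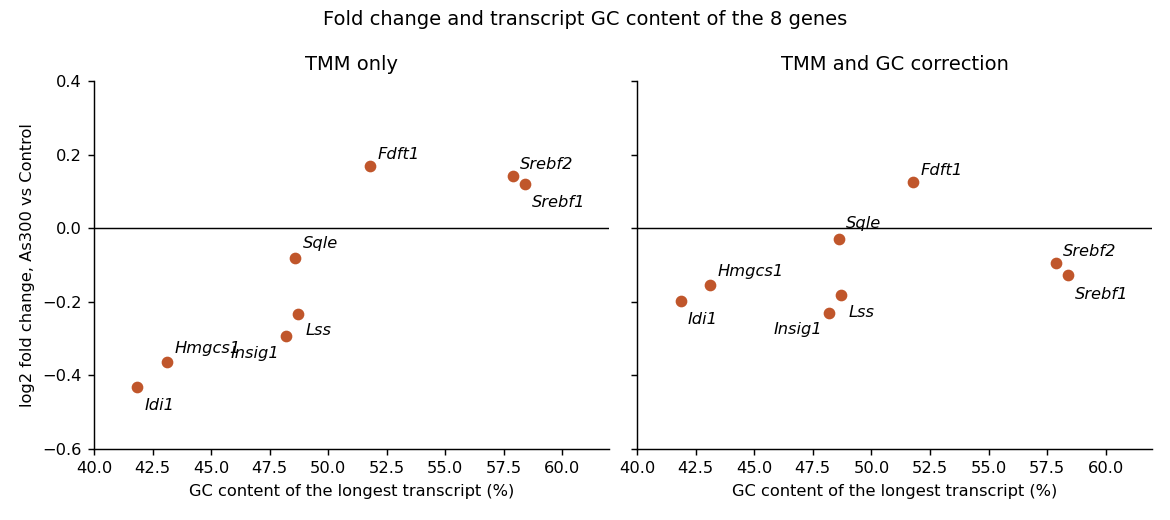
Log2 fold change in As300 against Control (y axis) and GC content of the longest transcript in percent (x axis) for the 8 genes, before (left) and after (right) each tumor was corrected for GC content. Before the correction the 3 genes with the most GC (Srebf1, Srebf2 and Fdft1) lie above 0 and the others below; after it Srebf1 and Srebf2 lie below 0 and Hmgcs1 and Idi1 lie nearer to it.

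On uncorrected log2 CPM over the 12 tumors, the genes moved together in blocks that did not include Srebf1. Which pairs passed changed with the scale. Of the 28 pairs, 22 had a positive Pearson's r, and 8 had an adjusted permutation p under 0.05, all positive. By Spearman's rho, 2 of the 28 pairs passed. Srebf2 and Fdft1 were closest (r = 0.94, adjusted p = 0.00028, rho = 0.97, adjusted p = 0.00028). Both permutation p-values were 1e-05, the smallest that 100000 permutations can give. Their r was 0.91 without the 2 tumors farthest from the median and 0.94 after group means were subtracted.

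Insig1, Hmgcs1, Idi1 and Lss formed a second block, in which each of the 6 pairs had an r from 0.71 to 0.89. Idi1 and Lss had r = 0.89 (adjusted p = 0.0014, rho = 0.74, adjusted p = 0.0723) and Insig1 and Idi1 had r = 0.84 (adjusted p = 0.00429, rho = 0.86, adjusted p = 0.0115). Fdft1 and Sqle were the eighth pair (r = 0.71, adjusted p = 0.0418, rho = 0.65, adjusted p = 0.103). After group means were subtracted, the r of the 8 pairs ran from 0.60 to 0.94, and without the 2 farthest tumors from 0.43 to 0.91. Only 1 of the 8, Srebf2 and Fdft1, kept an adjusted p under 0.05 in each of these. After group means were subtracted, Fdft1 also passed with Lss (r = 0.84), Idi1 (0.71) and Insig1 (0.57) of the second block. Each had an adjusted permutation p of 0.0486. Without the 2 farthest tumors, Sqle and Lss also passed (r = 0.88, adjusted permutation p = 0.0227). With the log2 CPM corrected for GC content, a choice made after seeing the data, 14 pairs passed, among them all 8. Srebf2 then had r = 0.88 with Lss, 0.82 with Idi1 and 0.75 with Hmgcs1, against 0.45, 0.22 and -0.11 before. Srebf1 passed with 0 of its 7 partners on each scale. Its r ran from -0.43 with Hmgcs1 to 0.53 with Fdft1 on uncorrected log2 CPM, and from 0.03 to 0.46 with the GC correction.

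**Figure D4:**
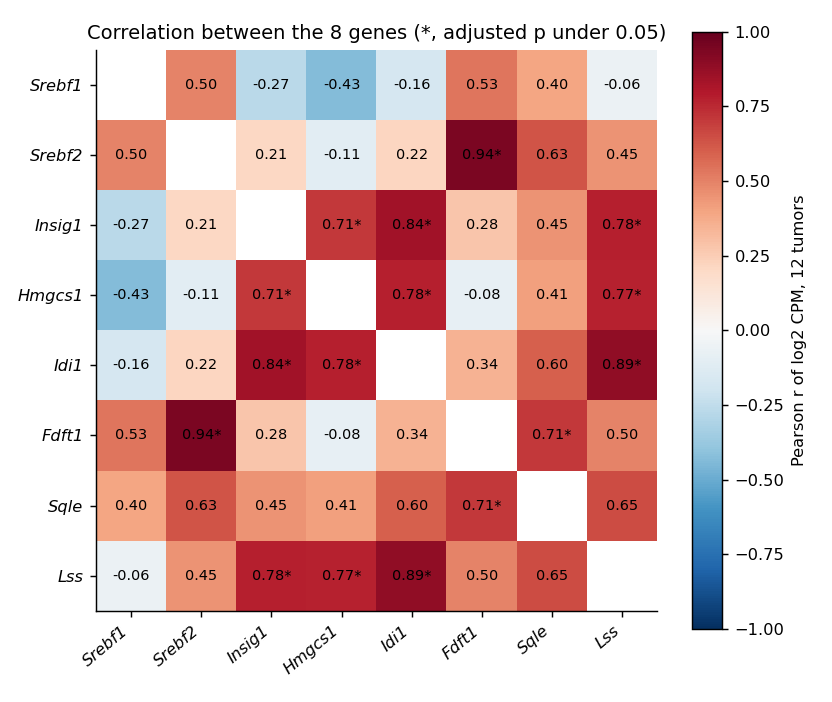
Pearson's r of log2 CPM between the 8 genes over 12 tumors (colour and printed value), with an asterisk for the 8 pairs with an adjusted permutation p under 0.05. Insig1, Hmgcs1, Idi1 and Lss form a block of high values. Fdft1 carries an asterisk with Srebf2 and with Sqle, while Srebf2 with Sqle (0.63) and Sqle with Lss (0.65) have none. The row of Srebf1 has no asterisk.

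The other sterol synthesis enzymes varied with the members to different degrees. Of 17 tested enzymes outside the 8 genes, 16 had a positive r with the mean of the 6 non-factor members over the 12 tumors, with a median r of 0.35 against 0.00 over all genes tested. Cyp51, lanosterol demethylase, had r = 0.92, and r was 0.80 for Sc5d, 0.77 for Msmo1, 0.64 for Nsdhl and 0.52 for Acat2, while Ebp was the exception at -0.17. Among 6288 genes with a mean of at least 5 log2 CPM, Cyp51 had the highest r with that mean, ahead of Gm5641 (0.87), Sltm (0.84) and Uhrf1 (0.84). After group means were subtracted the median r of the 17 was 0.47, against 0.02 over all genes. The genes most like Srebf1 were Med15 (r = 0.95), Tex261 (0.95), Mvp (0.94) and Cdc42ep2 (0.94), and those most like Srebf2 were Mier2 (0.91), Chmp7 (0.90), Glis2 (0.90) and Cuedc1 (0.88). These values describe 12 tumors that share preparation and depth, and carry no test.

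In the comparisons with Control, 0 of these 17 enzymes were called in either direction. Their median log2 fold change was 0.17 in ASC (-0.00 over all genes tested), 0.03 in As300 (-0.03) and 0.12 in ASC_As300 (-0.02). The 4 with the smallest p in any contrast were Mvk, mevalonate kinase (0.37 with ASC over both iAs levels, adjusted p = 0.189), Sc5d, sterol C5-desaturase (-0.31 in As300, adjusted p = 0.0856), Nsdhl (0.27 with ASC over both iAs levels, adjusted p = 0.248) and Mvd, mevalonate diphosphate decarboxylase (0.46 in ASC_As300, adjusted p = 0.208). The As300 change of Sc5d ran from -0.33 to -0.096 over the alternatives.

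Of the genes that carry, cut or degrade SREBP, 0 of 10 were called. Their median log2 fold change was -0.15 in As300, with 8 of 10 below 0. Mbtps2, the site-2 protease, was at -0.37 (adjusted p = 0.1004) and Erlin1 at -0.35 (adjusted p = 0.101) in As300, Insig2 at -0.22 in ASC (adjusted p = 0.230) and Rnf145 at 0.37 in the interaction (adjusted p = 0.312). Over the alternatives the As300 change ran from -0.48 to -0.073 for Mbtps2 and from -0.42 to -0.22 for Erlin1. In the 11 genes of the prenyl and dolichol branch, which leaves the pathway before squalene, 0 were called, and the median was -0.01 in ASC, 0.03 in As300 and 0.04 in ASC_As300. The members with the smallest p there were Ggps1 (-0.29, adjusted p = 0.0797), Rabggta (0.29, adjusted p = 0.119) and Pdss1 (-0.25, adjusted p = 0.328) in As300 and Coq2 (0.28, adjusted p = 0.204) in ASC.

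Among genes of sterol uptake and trafficking, Stard4 had the smallest p. Stard4, a cytosolic sterol carrier and an SREBP2 target, was at 57.2, 61.2 and 58.7 CPM in Control and 40.6, 42.1 and 45.0 CPM in As300, with no overlap. It was at 61.99, 45.4 and 46.3 CPM in ASC and 51.6, 50.96 and 53.4 CPM in ASC_As300. The As300 log2 fold change was -0.47 (SE 0.11, adjusted p = 0.0450), under 1.5-fold and so not called, and it was -0.29 with the correction for GC content (adjusted p 0.00371 to 0.192 over the alternatives). Of the 15 genes of this list 0 were called in any comparison, and the median in As300 was -0.20. The others with the smallest p were Npc2 (0.24, adjusted p = 0.156) and Scarb1 (0.29, adjusted p = 0.184) in ASC and Lrp8 (-0.36, adjusted p = 0.1004) in As300.

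Of the 18 fatty acid genes that SREBP1 is known to drive, 0 were called in any comparison. In As300, 17 of 18 had a log2 fold change below 0, with a median of -0.23 against -0.03 over all genes, and in ASC_As300 15 of 18 with a median of -0.15. Scd1, stearoyl-CoA desaturase, was at 678, 478 and 275 CPM in Control, 124, 1027 and 121 CPM in ASC, 136, 141 and 102 CPM in As300, and 108, 116 and 144 CPM in ASC_As300. For iAs over both ASC levels its log2 difference was -1.85 (SE 0.47, adjusted p = 0.181), and -0.96 without ASC replicate 2. Acaca, acetyl-CoA carboxylase, differed by -0.26 (SE 0.07, adjusted p = 0.181) in the same contrast, and in As300 Me1 was at -0.25 (adjusted p = 0.0661) and Mid1ip1 at 0.39 (adjusted p = 0.0599). These As300 values ran over the alternatives from -0.28 to -0.096 for Me1 and from 0.20 to 0.49 for Mid1ip1.

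The 4 tumors with the most Scd1 were also the 4 with the highest sum of 10 adipocyte markers. That sum was 501, 337 and 244 CPM in Control and 975 CPM in ASC replicate 2, and 92.2 to 158 CPM in the other 8 tumors. Adipoq, a defining adipocyte marker, was at 0.149 to 54.9 CPM. The part of these markers in the fatty acid values was not tested. Without ASC replicate 3, the adjusted p of Scd1 was among the 2 of 19 alternatives under 0.05, DESeq2 being the other, over a range of 0.0293 to 0.380.

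**Figure D5:**
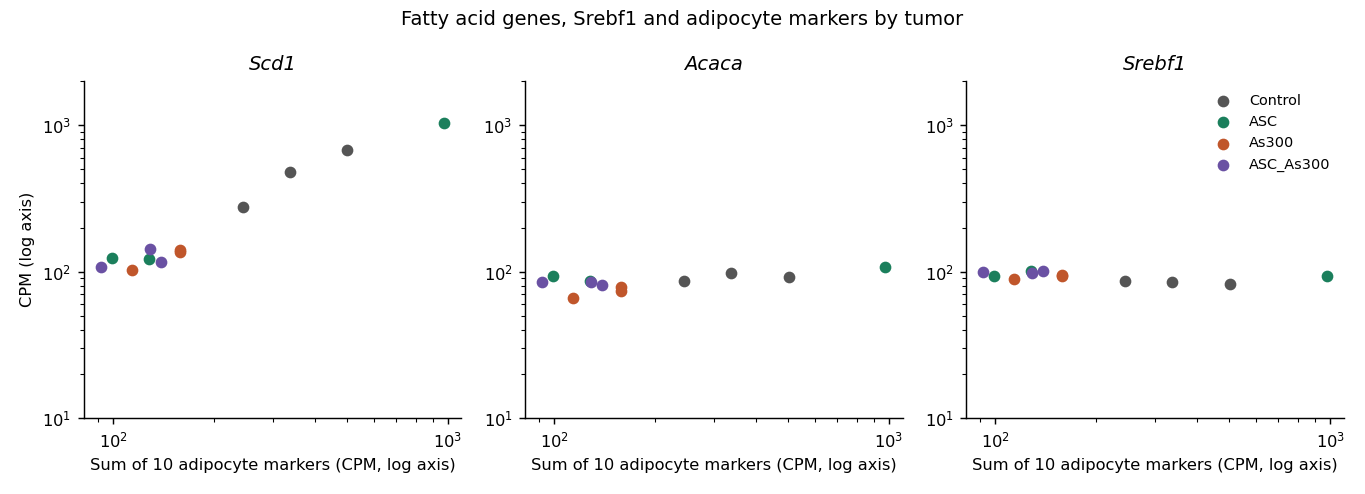
Level of Scd1, Acaca and Srebf1 in CPM (y axis, log scale) by the summed level of 10 adipocyte markers in CPM (x axis, log scale) in each of the 12 tumors, coloured by group. The 3 Control tumors and ASC replicate 2 lie to the right, from 244 to 975 CPM of markers, with Scd1 at 275 to 1027 CPM, while Srebf1 stays between 82.6 and 102 CPM throughout.

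Over the 7 wider lists, 1 of 91 genes (1.1%) was called in ASC_As300 against Control and 1 of 91 for ASC over both iAs levels, near the 0.807% and 1.45% of all genes. In both it was Gpr183, a receptor for oxysterols on immune cells. It was at 9.92, 8.10 and 6.12 CPM in Control, 2.89, 3.46 and 4.73 CPM in ASC, 5.73, 6.56 and 5.81 CPM in As300, and 3.03, 4.52 and 2.77 CPM in ASC_As300. Gpr183 fell by 1.22 on the log2 scale in ASC_As300 against Control (SE 0.26, adjusted p = 0.0467) and by 0.97 with ASC over both iAs levels (SE 0.18, adjusted p = 0.0145). Over the alternatives the adjusted p ran from 0.000338 to 0.239 for the first, 7 of 20 under 0.05, and from 2.29e-05 to 0.0501 for the second. Control replicate 1, the highest tumor in Gpr183, was the one with 193 CPM of B cell markers. With ASC, 9 T and NK cell markers summed to 54.8 to 78.6 CPM, against 17.9 to 23.6 CPM without ASC apart from 67.9 CPM in Control replicate 1, and 9 epithelial and prostate markers summed to 65.3 to 80.0 CPM, against 113 to 398 CPM. The part of these markers in the Gpr183 values was not tested. Ch25h, the enzyme that makes 25-hydroxycholesterol, was at 5.001, 6.45 and 3.62 CPM in Control and 10.9, 10.1 and 7.69 CPM in ASC, with a log2 fold change of 0.93 (SE 0.23, adjusted p = 0.0972). Ch25h was at 7.41, 7.26 and 7.34 CPM in As300 and 8.15, 11.5 and 8.01 CPM in ASC_As300, so that all 9 treated tumors lay above the Control tumors. Of the 10 genes of sterol esterification and oxysterols, Hsd3b7 (0.20 for iAs over both ASC levels, adjusted p = 0.187) and Nceh1 (-0.32 in ASC, adjusted p = 0.176) were the others with the smallest p.

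Of the 10 genes of the liver X receptor (LXR) and cholesterol efflux, 0 were called, with a median of 0.22 in ASC and -0.18 in As300. Nr1h2, which encodes LXR beta, was at 0.36 (adjusted p = 0.156) and Apoe, a lipoprotein component, at 0.42 (adjusted p = 0.172) in ASC. The As300 tumors, at 45.9 to 52.5 CPM of Nr1h2 and 827 to 1042 CPM of Apoe, were also above the Control tumors, at 39.2 to 43.5 and 679 to 790 CPM. Abcg1, a cholesterol exporter, was at 0.49 (adjusted p = 0.275) and Nr1h3, which encodes LXR alpha, at 0.51 (adjusted p = 0.362) with ASC over both iAs levels. Among the markers, the sum of 10 interferon response genes was 1259 to 1613 CPM in the 6 tumors with ASC and 191 to 352 CPM in the 6 without, and that of 10 macrophage markers 1840 to 2748 CPM and 1494 to 2031 CPM. In the As300 tumors the interferon sum was 191 to 278 CPM. Groups did not overlap between As300 and Control for 29.9% of all genes tested. The part of these markers in the Ch25h and LXR values was not tested.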

How the data were processed

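Poly(A) RNA of 12 tumors was sequenced by the authors (stranded TruSeq mRNA libraries, NovaSeq). The deposited table holds whole-number read counts per Ensembl gene and tumor, not normalized. The submitters' processing notes name cutadapt 1.1.0, HISAT2 2.0 and StringTie 1.3.4, and the counting step, genome build and annotation are not given in the sources used here. Symbols, lengths, GC content and coordinates came from GENCODE vM21 (GRCm38), and 55141 of 55401 identifiers matched. Because the counting step is not given, reads of overlapping genes could not be checked.

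Counts were filtered by filterByExpr, scaled by TMM and fitted with edgeR 4.0.16 (R 4.3.3) by quasi-likelihood over all 12 tumors with 1 mean per group, with Benjamini-Hochberg adjustment over 20818 genes. The study's methods name edgeR and DESeq2 with adjusted p under 0.05 and 1.5-fold. SE was taken from the F statistic. Log2 CPM used a prior count of 2. The fit was run on simulated counts with less spread between tumors than these data, which checks the code and not its error rate here. Correlations used two-sided permutation tests (100000 resamples) with adjustment over 28 pairs. After group means were subtracted, the test used all 1296 permutations within groups instead. Alternatives were DESeq2 1.42.0, other size factors, filters, no minimum fold, only the groups compared, a replicate block, a lowess GC correction and leaving out each tumor, the last and DESeq2 also with the genes tested held fixed.

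Named genes were the 8 members, up to 4 genes per pathway list with the smallest p over 6 contrasts, and the 4 genes most like each factor and like the mean of the other 6. The members and lists were chosen with earlier results of these data known. No promoter was given for Sqle and Fdft1. Values of some single genes of the marker and pathway lists are not reported here.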

Additional observations from a re-analysis of the deposited data

How the results depend on the processing

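No member was called under any of the 20 alternatives, and 60 gene-level log2 fold changes, recomputed 1187 times, kept their direction 1169 times. The 18 reversals were 8 under the GC correction and 10 on leaving out 1 tumor. With the GC correction Srebf2 was at -0.042 in ASC, -0.10 in As300 and -0.0038 in ASC_As300, Srebf1 at -0.13 in As300, Idi1 at 0.028 in ASC and 0.024 in ASC_As300, and Ggps1 and Pdss1 at 0.0085 and 0.10 in As300. Leaving out 1 tumor gave in ASC -0.0029 to 0.20 for Srebf2, -0.0075 to 0.046 for Insig1, -0.0021 to 0.21 for Sqle and -0.12 to 0.058 for Lss, and in As300 -0.16 to 0.026 for Sqle, and in ASC_As300 -0.30 to 0.0092 for Insig1 and -0.087 to 0.014 for Lss.

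The As300 calls of the whole table rested on the setting: 220 genes as reported, 816 with DESeq2, 8 with no filter, 454 with at least 10 counts in every tumor, 593 with no minimum fold, 0 with the GC correction, and 0 to 399 on leaving out 1 tumor (0 without Control replicate 1, 2 or 3 or ASC_As300 replicate 1 or 3, 7 without ASC_As300 replicate 2, 28 without ASC replicate 2, 1 without As300 replicate 2, 2 without As300 replicate 3, 122 without As300 replicate 1, and 394 and 399 without ASC replicates 1 and 3). DESeq2 called 450 genes in ASC (150 by edgeR), 390 in ASC_As300 (168), 399 in ASC_As300 against As300 (178) and 478 for ASC over both iAs levels (301). With only the groups compared, 89 were called in ASC. Leaving out 1 tumor gave 105 to 355 in ASC (355 without ASC replicate 1), 90 to 203 in ASC_As300 (90 without its replicate 3) and 95 to 277 in ASC_As300 against As300 (95 without ASC_As300 replicate 3, 277 without Control replicate 1). Without a tumor or with DESeq2 the filter also passed other numbers of genes. With the 20818 genes held fixed, a choice made after seeing the data, DESeq2 called 774 genes in As300, 422 in ASC and 336 in ASC_As300. The As300 count then ran from 0 to 411 as each tumor was left out, and no member was called. For iAs over both ASC levels, without ASC replicate 3, 59 genes were called, or 63 with the genes held fixed, against 0. The cause was not tested.

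Against 8 correlated pairs, 4 passed after group means were subtracted, 2 without the 2 farthest tumors and 14 with the GC correction. Of these, 1, 1 and 8 were among the original 8 pairs. With lengths of the longest transcript Hmgcs1 and Srebf1 changed places, and with TPM (length-scaled shares of the library) the order of the 8 genes was as given.

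Same-numbered tumors did not deviate together (18 pairs, r from -0.12 to 0.17, 2 over 0.1, against -0.22 to 0.25 for other pairs). With the replicate block 0 of 8 members were called in each comparison, as without it, and the calls were 148 in ASC, 195 in As300 and 155 in ASC_As300.

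With 3 tumors a group, the intervals of Insig1 and Idi1 in As300 still hold decreases past 1.5-fold.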
